A study of Mus musculus with 7 samples.

Results

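The genes described here encode eukaryotic translation initiation factors, numbered eIF1 to eIF6. They were taken as every probe set with a single gene symbol in the platform annotation that begins with Eif and a number from 1 to 6, leaving out the Eif2ak kinases and the sex-linked pair Eif2s3x and Eif2s3y. This gave 115 of 45101 probe sets, for 41 genes, and the rule used no measured value. The list is not complete: Eif1, Eif2s1 and Eif4g1, for example, were not on it, and their levels are not described here. RNA came from D3 mouse embryonic stem cells, an established line, either wild type (2 samples) or knockout for calreticulin, the calcium-binding chaperone of the endoplasmic reticulum encoded by Calr (5 samples). Every RNA sample combined replicate cultures harvested together and went onto an Affymetrix Mouse 430 2.0 array of its own, and the labels describe the samples as separate biological replicates. They do not say whether the knockout is 1 clone or several, so a p-value here measures the spread between these samples. No age, sex, treatment or time point is given for either group. Libraries are called wild type 1 and 2 and knockout 1 to 5, as numbered in the titles.

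Initiation factors bring the first transfer RNA, the small ribosomal subunit and a messenger RNA together. eIF2 carries the initiator transfer RNA as a complex with GTP, eIF2B recharges eIF2 with GTP after each round, eIF3 is the large scaffold on the small subunit, and the eIF4 proteins bind the cap of the messenger RNA, unwind its leader and join it to the ribosome. The exchange reaction of eIF2B is the step that eIF2 kinases such as PERK, a sensor in the endoplasmic reticulum, shut down by phosphorylating eIF2, and the cap-binding step is held back by the eIF4E-binding proteins. Embryonic stem cells are known for a low rate of translation relative to their differentiating progeny.

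The targeted gene checked the labels: the brightest Calr probe set read 912 ± 205 (SD, n = 5) in the knockout and 11650 ± 1146 (SD, n = 2) in the wild type libraries. The signals of 8 embryonic stem cell markers, all tested, summed to between 70344 and 104747 in every library. Knockout libraries 2 and 3 stood apart. Their mutual correlation was r = 0.985, where pairs made of 1 of them and 1 other library gave 0.843 to 0.902 and pairs among the rest 0.920 to 0.972. These correlations run over the tested probe sets, which are not independent replicates. For each gene described below, the difference of its brightest probe set is therefore also given without this pair of libraries.

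Signals are MAS5 intensities on a linear scale. Differences are knockout minus wild type in log2(signal + 20.2), where the added constant is the 20th percentile of all signals, so that changes of dim probe sets are understated. A probe set was tested if its mean log2 value lay above the 40th percentile, which 103 of the 115 probe sets did, representing 40 of the 41 genes. The gene left over, Eif4a3, encodes a helicase of the exon junction complex. Its single-symbol probe set had signals of 4.5 to 20.9 and was not tested. A gene is given by its brightest probe set unless stated otherwise. The suffixes _x_at, _s_at and _a_at mark probe sets that can also bind related transcripts, and signals of different probe sets were not set against each other.

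No initiation factor probe set passed the test (limma, Benjamini-Hochberg adjusted over all 27022 tested probe sets, threshold 0.05). The lowest adjusted p among the 103 was 0.575, and over all probe sets 8 passed (0.0296%), 3 higher (0.0111%) and 5 lower (0.0185%). At an unadjusted p under 0.05 there were 10 of the 103, 4 with a higher and 6 with a lower signal in the knockout cells, which is 9.71% against 8.42% of all probe sets (5.81% higher and 2.61% lower). The direction was uneven all the same. Of the 40 tested genes 31 had a negative difference, with a median of -0.38, where over all 13120 genes tested 50.3% were negative with a median near 0 (-0.0041). Bright genes leaned the same way in general. Of the 1739 genes with a mean signal above 2630.2, a level explained below, 63.7% were negative, with a median of -0.17. The differences ran from -1.11 for Eif6 to 0.92 for Eif5a2.

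The highest knockout signal was under the lowest wild type signal in 7 of the 40 genes (17.5%, against 7.44% of all genes): Eif2b1, Eif2b2, Eif2b4, Eif3d, Eif3i, Eif3l and Eif4h. The reverse held for 1, Eif4g3 (2.5%, against 6.41% of all genes). In either direction the groups did not overlap in 8 of 40 members and in 13.8% of all genes. The count of lower genes rests on few libraries. It was 12 without wild type library 1 (15.2% of all genes lower), 22 without wild type library 2 (28.1%), 17 without knockout library 1 (10.9%) and 10 without knockout library 4 (12.3%). The count of higher genes was 9 without wild type library 2 (23.6% of all genes higher). With arrays centred on their medians, 12 genes were lower (10.8% of all genes), and with quantile normalization 5 were (9.46%).

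The lower signals lay mainly in knockout libraries 2 and 3. The median of the 40 genes relative to the wild type mean was -0.65 and -0.78 in these libraries, against -0.08, -0.11 and -0.20 in knockout libraries 1, 4 and 5. Without the pair the median difference was -0.15, 29 of 40 genes were still negative, and in 8 the 3 remaining knockout signals were under both wild type signals (20%, against 10.9% of all genes). These were the 7 genes above and Eif1ad, and Eif4g3 was again the single gene above both (10.2% of all genes). No initiation factor probe set passed limma in that fit, where 0.0185% of all probe sets passed. In it 5 of 104 were at an unadjusted p under 0.05 (4.81%, against 5.67% of all). None passed limma with the pair as a batch term, where 0.037% of all passed and 12 of 103 were at an unadjusted p under 0.05 (11.7%, against 8.65% of all). The lowest limma adjusted p over the 40 genes was 0.820 and 0.542 in these fits.

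**Figure D1:**
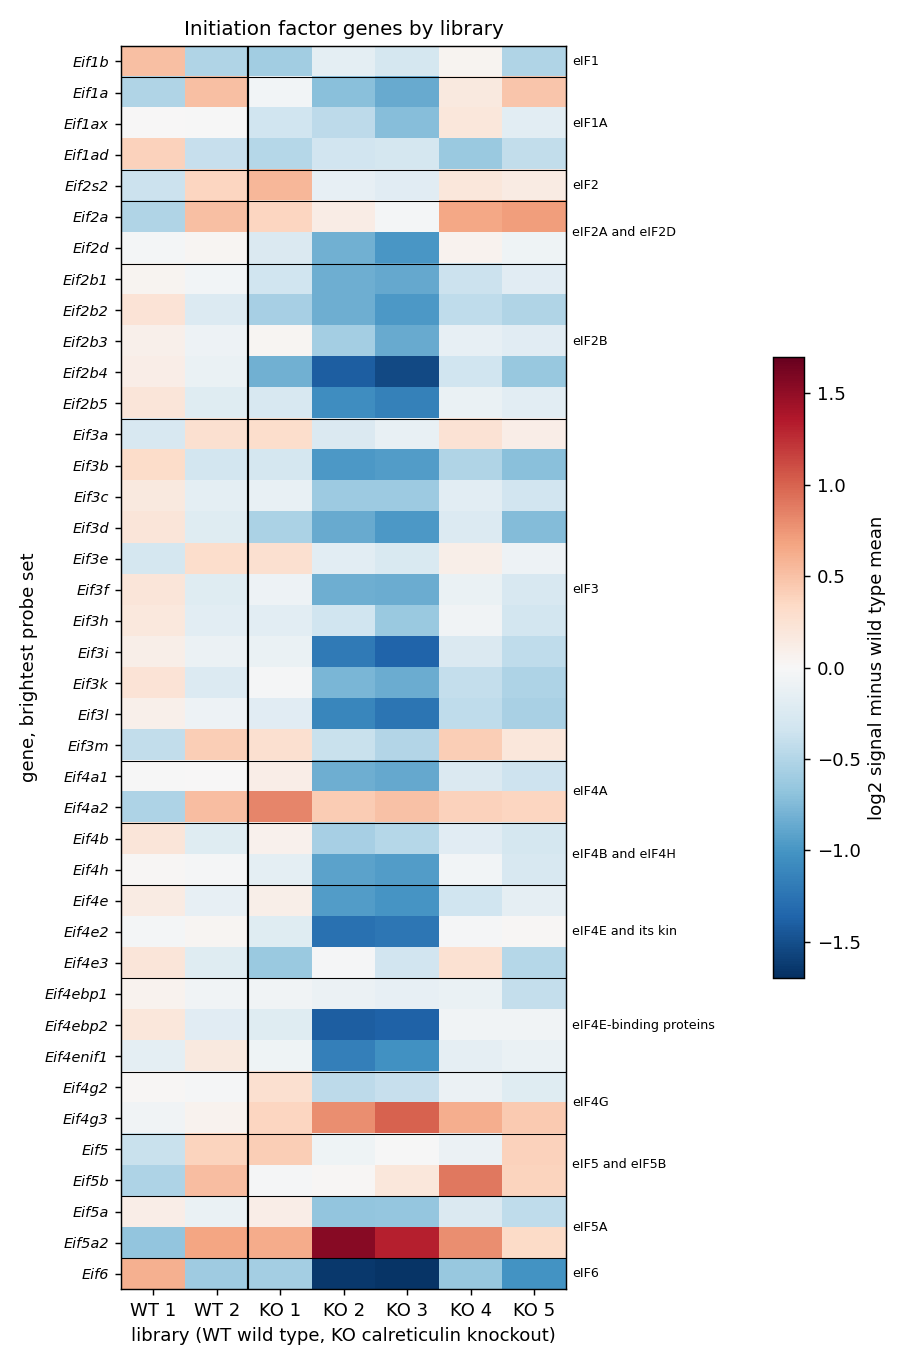
Rows are the 40 tested initiation factor genes by factor number, columns the 7 libraries, and colour is the log2 signal minus the wild type mean (blue lower, red higher; the vertical line separates wild type from knockout). The columns of knockout 2 and 3 are blue for most genes, with medians of -0.65 and -0.78, while Eif4g3, Eif5a2 and Eif4a2 are red in all 5 knockout columns.

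All 5 subunit genes of eIF2B had a lower mean signal in the knockout cells. Their differences ran from -0.35 to -0.95, with a median of -0.56, and in each of the 5 genes knockout libraries 2 and 3 were the lowest pair. Groups did not overlap for 3 of the 5, all lower. The same held for 7.44% of all genes and for 14.8% of those with a mean signal above 2630.2. Of the 5 only Eif2b2 and Eif2b5 lay above that level. All 5 kept a negative difference under quantile normalization and median centring. None passed the test.

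Eif2b4 encodes the delta subunit, part of the regulatory subcomplex that senses phosphorylated eIF2. Its signals were 3657 and 3113 in wild type libraries and 1904, 1269, 1151, 2670.0 and 2156 in knockout libraries 1 to 5. All 5 lay below both wild type values, with the lowest in knockout 2 and 3. The means were 3385 ± 384 (SD, n = 2) and 1830.0 ± 631 (SD, n = 5), which put the knockout mean at 54.1% of the wild type one, with a log2 difference of -0.95 (SE 0.36, 95% interval -1.75 to -0.14, limma adjusted p = 0.575). Over knockout libraries 1, 4 and 5 alone it was -0.60 (limma adjusted p = 0.820).

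Eif2b2 encodes the beta subunit of the same regulatory part. It gave 4686 and 3391 in wild type and 2692, 2233, 2022, 2943 and 2789.7 in knockout libraries. The groups did not overlap, and the wild type libraries differed from each other by more than the knockout libraries 1, 4 and 5 did. The difference was -0.66 (SE 0.27, limma adjusted p = 0.575), and the gene's other 2 probe sets stood at -0.65, where the groups were also separate, and -0.42. Without knockout libraries 2 and 3 the brightest probe set stood at -0.50.

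Eif2b1, the alpha subunit, had 3372 and 3181 in wild type and 2585, 1828, 1776, 2531 and 2854 in knockout libraries. Every knockout value lay below both wild type values, with a difference of -0.52 (SE 0.28, limma adjusted p = 0.575) that was -0.30 without knockout 2 and 3.

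The catalytic pair, gamma and epsilon, overlapped between the groups. Eif2b5, encoding epsilon, the subunit that carries the exchange activity, had 4046 and 3061 in wild type and 2902, 1680.5, 1573, 3238 and 3108 in knockout libraries (difference -0.56, SE 0.36, limma adjusted p = 0.596). Knockout 4 and 5 lay above wild type 2, so the lower mean came from knockout 2 and 3, and without them the difference was -0.19. Eif2b3, encoding gamma, had 1542 and 1362 against 1488, 961, 791, 1314 and 1272 (-0.35, SE 0.31, limma adjusted p = 0.681; -0.10 without knockout 2 and 3). The regulatory subunits thus stood at -0.30 to -0.60 in knockout libraries 1, 4 and 5, and the catalytic ones at -0.10 and -0.19. The difference between the 2 sets of subunits was not tested.

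**Figure D2:**
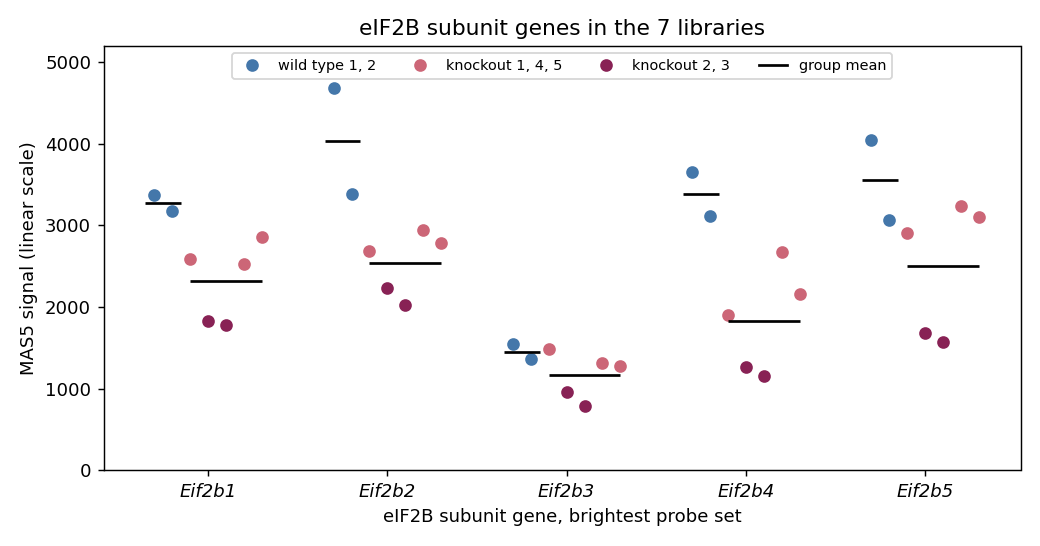
Points are the MAS5 signals (linear scale) of the 5 eIF2B subunit genes in each library, and black lines are the means of 2 wild type and 5 knockout libraries. For Eif2b1, Eif2b2 and Eif2b4 no knockout point reaches a wild type point, and knockout 2 and 3 are lowest in every gene.

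The windows before the start sites are shown for the 4 eIF2B genes with an entry in the RefSeq promoter table (GRCm38.p6), and for 2 eIF3 genes. The mean signals of all 6 were lower in the knockout cells, which held for 31 of the 40 tested members. Eif4h, which also had an entry and groups that did not overlap, is not shown, so the 6 are not a full set of the lower genes. Groups did not overlap in 5 of these 6, Eif2b5 being the exception. Each runs 5′ to 3′ on the gene's strand from 150 bases before the annotated start to the 30th base after it. Capitals mark CCGGAAG, a strict form of the site bound by ETS family factors, or its reverse complement CTTCCGG. Variant forms of the site are not marked.
Eif2b1, chr5:124579102-124579281 (minus strand): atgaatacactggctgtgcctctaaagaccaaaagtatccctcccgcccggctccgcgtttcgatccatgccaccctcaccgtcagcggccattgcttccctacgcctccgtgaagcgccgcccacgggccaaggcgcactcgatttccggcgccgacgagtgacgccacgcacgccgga
Eif2b2, chr12:85219331-85219510 (plus strand): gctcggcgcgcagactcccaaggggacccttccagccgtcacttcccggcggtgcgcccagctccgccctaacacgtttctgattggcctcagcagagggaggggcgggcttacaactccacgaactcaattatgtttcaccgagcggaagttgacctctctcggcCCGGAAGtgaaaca
Eif2b4, chr5:31193110-31193289 (minus strand): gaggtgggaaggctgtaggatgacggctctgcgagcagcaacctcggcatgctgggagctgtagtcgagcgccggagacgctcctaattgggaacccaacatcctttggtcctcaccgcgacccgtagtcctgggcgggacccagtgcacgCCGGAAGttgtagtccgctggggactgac
Eif2b5, chr16:20498667-20498846 (plus strand): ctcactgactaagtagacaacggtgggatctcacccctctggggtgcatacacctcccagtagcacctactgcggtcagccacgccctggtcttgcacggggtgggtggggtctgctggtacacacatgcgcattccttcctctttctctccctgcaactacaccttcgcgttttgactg
Eif3d, chr15:77970795-77970974 (minus strand): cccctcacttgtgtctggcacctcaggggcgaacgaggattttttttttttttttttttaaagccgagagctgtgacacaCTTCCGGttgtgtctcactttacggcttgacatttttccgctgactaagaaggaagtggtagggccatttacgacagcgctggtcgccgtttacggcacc
Eif3l, chr15:79075073-79075252 (plus strand): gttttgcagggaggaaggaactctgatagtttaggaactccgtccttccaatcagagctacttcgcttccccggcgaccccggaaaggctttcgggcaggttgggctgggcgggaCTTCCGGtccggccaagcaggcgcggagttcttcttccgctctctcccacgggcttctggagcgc

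The exact ETS form CCGGAAG, on either strand, stood once each in the windows of Eif2b2, Eif2b4, Eif3d and Eif3l. It was not in those of Eif2b1 and Eif2b5. Other forms of the ETS site were not counted, so no window is shown to lack one. Of the 7 genes with lower signals in all knockout libraries, 6 had a window and 4 of these held the exact form. Eif2b1 and Eif4h did not. Among all 31 tested members with a window 13 held it (41.9%), against 8.08% of 27018 genes. Those 27018 are all genes of the promoter table, tested here or not, while the 31 members were all tested. The shares are therefore not matched for expression, and none was computed over the tested genes alone. Of these 13 only Eif5a2 (0.92) and Eif3m (0.0015) had a positive difference, but so did only 9 of all 40 tested members. On both strands of the same windows, the GC box GGGCGG was in 20 of 31 members (33.6% of all genes), CCAAT in 10 (30.3%), the E-box CACGTG in 8 (5.80%) and the NRF1 core in 4 (4.32%). The amino acid response core TGATGNAA, in 2.95% of all genes, and the cAMP response core TGACGTCA, in 1.80%, were in none of the 31. None of the 7 motifs contains another, and a match is a description of the letters only.

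Of the 11 measured subunits of eIF3, 9 had a negative difference, 8 of them between -0.31 and -0.71, and Eif3a, Eif3e and Eif3m lay between -0.03 and 0.06. Knockout libraries 2 and 3 were the lowest pair in 8 of the 11 genes. The groups did not overlap for Eif3l, Eif3i and Eif3d, all lower. The same held for 7.44% of all genes and for 14.8% of those with a mean signal above 2630.2. None of the subunits passed the test. Under median centring Eif3a (-0.06) and Eif3m (-0.12) changed sign, and under quantile normalization Eif3e did (0.19).

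Eif3l encodes a subunit of the structural core. Its signals were 13976 and 12339 in wild type and 11466, 6098, 5524, 9716 and 8931 in knockout libraries. Knockout 1 came closest to wild type 2, and knockout 2 and 3 were the lowest. The difference was -0.71 (SE 0.30, limma adjusted p = 0.575; -0.39 without knockout 2 and 3). Its other 2 tested probe sets, both dim, overlapped between the groups and were positive (0.04 and 0.26).

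Eif3i, a beta-propeller subunit at the edge of the complex, gave 17289 and 15006 against 14958, 6967, 6238, 13595 and 11936. Knockout 1 lay just under wild type 2, and knockout 2 and 3 averaged 40.9% of wild type. The log2 difference was -0.67 (SE 0.36, limma adjusted p = 0.575) and -0.26 without that pair, and the gene's second probe set overlapped between the groups (-0.56).

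Eif3d, which can contact the cap of some messenger RNAs, differed by a like amount in a more even way. Wild type libraries had 14335 and 10816, and knockout libraries 8554, 6894, 6325, 10551 and 7489. All lay below wild type 2, and the difference of -0.67 (SE 0.25, 95% interval -1.23 to -0.10, limma adjusted p = 0.575) was -0.50 without knockout 2 and 3.

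Eif3b, another propeller subunit, had 11293 and 7269.5 in wild type, and knockout 1, with 7372, lay above wild type 2. The other knockout libraries had 4577, 4662, 6363 and 5545, which gave a difference of -0.69 (SE 0.28, limma adjusted p = 0.575; -0.50 without knockout 2 and 3). The remaining core subunits Eif3c (-0.38), Eif3k (-0.51), Eif3f (-0.43) and Eif3h (-0.31) overlapped between the groups with their brightest probe sets. Without knockout 2 and 3 they stood at -0.21, -0.32, -0.16 and -0.19. For Eif3c, 2 other probe sets had groups that did not overlap (-0.48 and -0.50; 5.85% of all probe sets were separate and lower) and a dimmer one stood at 0.13.

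Eif3e, a core subunit also called Int6, did not share the lower signal. Its signals were 11023 and 16788 in wild type and 16451, 11984, 11405, 14599 and 12762 in knockout libraries. All 5 knockout values lay between the wild type values, at a difference of -0.03 (95% interval -0.56 to 0.50, limma adjusted p = 0.968). Eif3a, the largest scaffold subunit, stood at 0.06 (95% interval -0.48 to 0.60), and Eif3m at 0.0015 (95% interval -0.76 to 0.76). Without knockout 2 and 3, Eif3e stood at 0.09, Eif3a at 0.22 and Eif3m at 0.29. In all 3 genes wild type 1 was far below wild type 2, and intervals of this width do not show equal levels.

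**Figure D3:**
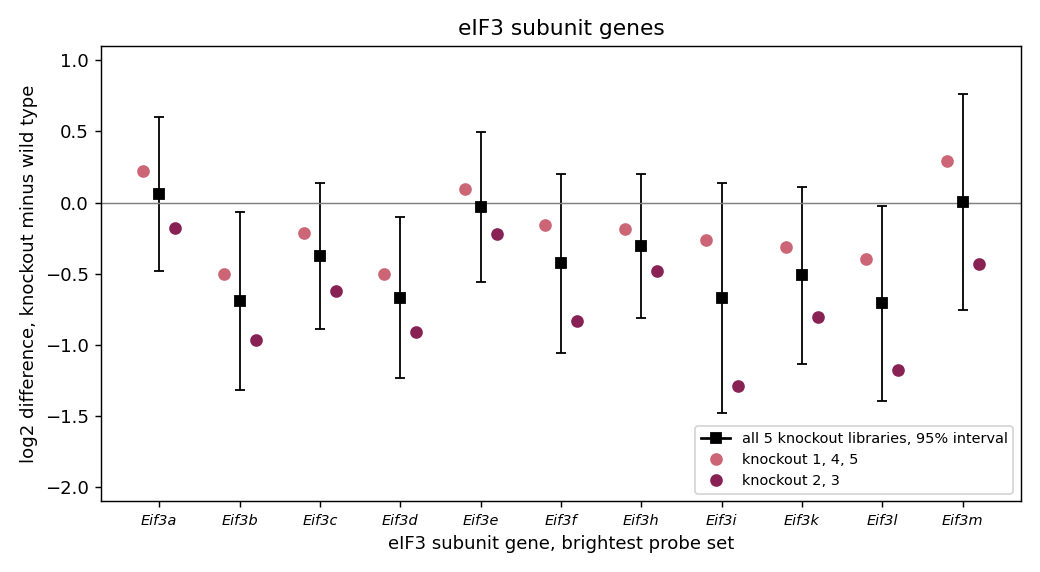
Black squares are the log2 differences of the 11 eIF3 subunit genes over all 5 knockout libraries with 95% intervals, and circles are the same difference with knockout 1, 4 and 5 or with knockout 2 and 3 alone. Knockout 2 and 3 lie below the other 3 in every gene, and Eif3a, Eif3e and Eif3m sit near 0.

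Of the 12 genes tested among the eIF4 factors, 10 had a negative difference, and none passed the test. Eif4a1, the main helicase that unwinds leaders, had 17961 and 18042 in wild type and 19433, 10109, 9818, 15200.4 and 14137 in knockout libraries. Knockout 1 exceeded both wild type values, and the mean of knockout 2 and 3 was 55.3% of the wild type one. The log2 difference over all 5 was -0.44 (SE 0.28, limma adjusted p = 0.593; -0.16 without the pair). Its close relative Eif4a2 went the other way: 6192 and 12876 against 15822, 12058, 12599.7, 11720.3 and 11503, a difference of 0.50 (SE 0.28, limma adjusted p = 0.578). The 5 knockout values lay around the higher of the wild type values, and the difference was -0.03 without wild type 1 and 0.53 without knockout 2 and 3.

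Eif4h, a helper of the helicase, had 12989 and 12579.8 in wild type and 11381, 6791, 6637, 12382 and 10582 in knockout libraries. The groups did not overlap, but knockout 4 lay close under wild type 2, and the difference of -0.47 (SE 0.29, limma adjusted p = 0.588) was -0.16 without knockout 2 and 3. Eif4b, the related RNA-binding cofactor, stood at -0.29 with all of its 3 probe sets negative (-0.14 without knockout 2 and 3).

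The cap-binding protein gene Eif4e had 6855 and 5658 in wild type and 6688, 3219, 3096, 4934 and 5589 in knockout libraries. The mean of knockout 2 and 3 was 50.5% of the wild type mean and knockout 1 lay between the wild type libraries, for a difference of -0.47 (SE 0.34, limma adjusted p = 0.624; -0.13 without the pair). Eif4e2, a cap-binding repressor, had the same outline (-0.54, and -0.06 without the pair), with knockout 2 and 3 at 1779.9 and 1833 and all other libraries from 3739.6 to 4409.9. The third cap-binding gene, Eif4e3, was dim (202 ± 44.5, SD, n = 2, and 170.5 ± 49.1, SD, n = 5) and stood at -0.24 (-0.28 without the pair).

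The eIF4E-binding proteins, brakes on the cap-binding step, split by gene with their brightest probe sets. Eif4ebp1 had 14181 and 12950.3 in wild type and 13058, 12694, 12339, 12539 and 10200.2 in knockout libraries, a difference of -0.16 (SE 0.19, 95% interval -0.58 to 0.26, limma adjusted p = 0.751) that was 0.04 under quantile normalization and -0.19 without knockout 2 and 3. Knockout 2 and 3 did not stand apart here, at 92.3% of the wild type mean. Eif4ebp2 had 1777 and 1797 in knockout 2 and 3, against 4083 to 5363 in the other 5 libraries, which put the pair at 37.6% of the wild type mean (difference -0.62, SE 0.44, limma adjusted p = 0.622; -0.11 without the pair). Its other tested probe sets, all dimmer, stood at -0.23, -0.41 and 0.54. In each of them wild type 2 lay below knockout 2 and 3, so the low pair rests on the brightest probe set. Eif4enif1, the shuttling protein that carries eIF4E into processing bodies, had 1341 and 1474 in the pair and 2698 to 3396 elsewhere (-0.50; -0.11 without the pair).

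Of the scaffolds that join cap and ribosome, the list held Eif4g2 and Eif4g3 but not Eif4g1. By brightest probe sets Eif4g3 was the single member higher in all 5 knockout libraries. Its signals were 1498 and 1633 in wild type and 2017, 2721, 3163, 2410.0 and 2127 in knockout libraries. The lowest knockout value was above the highest wild type value, and knockout 2 and 3 were the highest. The means were 1565 ± 95.8 (SD, n = 2) and 2487 ± 466 (SD, n = 5), a difference of 0.64 (SE 0.27, 95% interval 0.04 to 1.25, limma adjusted p = 0.575), and 0.47 over knockout 1, 4 and 5. Its other 3 tested probe sets, all with mean signals under 500, overlapped at -0.04 to 0.38. Eif4g2, an eIF4G relative that lacks the cap-binding part and serves cap-independent initiation, had 18783 and 18304 against 22479.6, 13658, 14071, 17229.5 and 16113, with knockout 1 above and the other 4 below the wild type pair (-0.17, SE 0.22, limma adjusted p = 0.772; 0.03 under quantile normalization and -0.010 without knockout 2 and 3).

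Among the factors that choose the start codon, none stood clear of the spread by its brightest probe set over all libraries. Eif1b, an eIF1 paralogue, had 1574 and 767 in wild type and 720.5, 976, 888, 1134 and 768 in knockout libraries. The wild type libraries bracketed 4 of the 5 knockout values, at a difference of -0.31 (SE 0.34, limma adjusted p = 0.735) that turned to 0.20 without wild type 1 and was -0.35 without knockout 2 and 3. Eif1ax, the X-linked gene for eIF1A, had 6460.3 and 6346 against 5070.3, 4707, 3878, 7330.3 and 5637. The 2 wild type values were close, 4 knockout values lay below and knockout 4 above them, and the difference was -0.30 (SE 0.27, limma adjusted p = 0.685; -0.11 without knockout 2 and 3). Its autosomal relative Eif1a stood at -0.20 and turned to 0.19 without that pair. Eif1ad, which encodes a protein with an eIF1A-like domain, stood at -0.43, and at -0.51 without the pair. Its second probe set went the other way, at 0.20. There all knockout values (1192 to 1345) lay above both wild type values (1105 and 1094), where 7.8% of all probe sets were separate and higher.

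Eif2s2, the beta subunit of eIF2 itself, had 9884 and 16518 in wild type and 18921, 11615, 11203, 14672 and 14015 in knockout libraries. The wild type spread covered 4 of the 5 knockout values. Its difference was 0.11 (SE 0.27, 95% interval -0.50 to 0.73, limma adjusted p = 0.882), with all of its 6 probe sets positive (0.04 to 1.01), though it was -0.0042 under median centring and -0.26 without wild type 1. Without knockout 2 and 3 it was 0.30. Eif2d, a factor that can place initiator and other transfer RNAs without eIF2, had 3598 and 3752 against 3102, 2087, 1846, 3816 and 3479.8, a difference of -0.41 (SE 0.33, limma adjusted p = 0.650) that came from knockout 2 and 3 and was -0.09 without them. Eif2a, a separate protein despite its name, stood at 0.37 (0.58 without the pair).

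Eif5, the GTPase activator of eIF2, had 5128 and 8695 in wild type and 8967, 6352, 6637, 6221 and 8733 in knockout libraries, with 2 knockout values just above wild type 2 and the others between the wild type libraries. The difference was 0.13 (SE 0.28, limma adjusted p = 0.871), and -0.25 without wild type 1 and 0.24 without knockout 2 and 3. Eif5b, which joins the large ribosomal subunit, stood at 0.29 (0.42 without the pair), with all 3 of its probe sets positive.

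Eif5a, the hypusine-bearing factor of peptide bond formation, had 22717 and 19440.0 in wild type and 22637, 13199.5, 13293, 17786 and 15589 in knockout libraries. Knockout 1 matched wild type 1 and the other 4 lay below both wild type values, for -0.38 (SE 0.24, limma adjusted p = 0.592; -0.19 without knockout 2 and 3). Its paralogue Eif5a2 had the largest positive difference of the list. It was dim, with 142 and 395 in wild type and 381, 742, 628, 429.6 and 306 in knockout libraries, so that 2 knockout values fell between the wild type values. The difference of 0.92 (SE 0.44, 95% interval -0.06 to 1.91, limma adjusted p = 0.575) was 0.25 without wild type 1 and 0.58 without knockout 2 and 3. Within knockout 2 and 3 the 2 paralogues therefore moved in opposite directions from the wild type mean, by -0.67 for Eif5a and 1.44 for Eif5a2.

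Eif6, which keeps the large ribosomal subunit from joining too early, had the largest negative difference. Its signals were 10088 and 4381 in wild type and 4455, 2128, 2086, 4243 and 3282 in knockout libraries. Wild type 1 was 230.3% of wild type 2, and knockout 1 lay above the latter, so the groups overlapped. The difference of -1.11 (SE 0.42, 95% interval -2.05 to -0.16, limma adjusted p = 0.575) was -0.51 without wild type 1, -1.71 without wild type 2 and -0.75 without knockout 2 and 3. The second probe set of Eif6 stood at -0.37.

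The sign of some genes depended on which wild type library was used. In 10 of the 40 genes wild type 2 exceeded wild type 1 by more than 0.5 in log2 (25%, against 20.3% of all genes): Eif1a, Eif2a, Eif2s2, Eif3a, Eif3e, Eif3m, Eif4a2, Eif5, Eif5b and Eif5a2. In 4 the reverse held (10%, against 24.1%): Eif1b, Eif1ad, Eif3b and Eif6. Of the 9 genes with a positive difference 8 were among those 10, the exception being Eif4g3. Against wild type 2 alone, 37 of the 40 genes were negative and 3 positive (Eif1b, Eif4g3 and Eif5a2). Against wild type 1 alone, 29 were negative and 11 positive. With either wild type library Eif4g3 and Eif5a2 were positive and 28 genes negative. The 3′ to 5′ ratio of the Actb control probe sets, a measure of how far labelling reached along a transcript, was 1.46 in log2 in wild type 1 and 2.07 in wild type 2, and its part in these differences was not tested.

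Knockout libraries 2 and 3 were the lowest pair of the 7 in 26 of the 40 genes (65%) and the highest in 2, Eif4g3 and Eif5a2. Over all genes tested they were the lowest pair in 26.0% and the highest in 24.6%. Part of this went with signal level. The first quartile of the members' mean signal was 2630.2, and among all 1739 genes above it the median in knockout 2 and 3 was -0.36 and -0.40, where the 30 members above it had -0.75 and -0.84. Above that level the pair was lowest in 22 of 30 members (73.3%) and in 48.5% of all genes, and the groups were separate and lower in 5 of 30 members (16.7%) and in 14.8% of all genes. Over all 5 knockout libraries, 24 of the 30 members (80%) had a negative difference, with a median of -0.40. For the 1739 genes these values were 63.7% and -0.17. Bright genes in general were thus lower in knockout 2 and 3, and the share of members with separate groups was near that of all bright genes. This level was chosen after the values had been seen.

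Quantile normalization, which gives every array the same distribution, left medians of -0.54 in each of knockout 2 and 3 for the 30 members above the level, against -0.17 and -0.19 for all genes above it. The Actb 3′ to 5′ ratio was 0.79 and 0.89 in the pair and 1.46 to 2.07 in the other 5 libraries. By the Gapdh control probe sets the pair stood less clearly apart. That ratio was -0.31 and -0.27 in the pair and ran from -0.17 in knockout 1 to 1.32 in knockout 4 among the other 5. Of 8 fibroblast markers, all with a probe set and 7 tested, the summed signal was 3745 and 3568.5 in the pair, 762 to 1113 in the other knockout libraries and 1150.6 to 1396 in wild type, and none of the 8 was at 0 in any library. By brightest probe sets the pair lay above all other libraries in 5 of the 8 (Col1a1, Col1a2, Col3a1, Dcn and Postn), and below them in 1, Twist2. In the second tested probe set of Col1a2 the pair also lay above the others. In that of Col1a1 it did not, with 280 and 366 in the pair and 324 and 332 in wild type. Of the 8 stem cell markers the pair lay below all other libraries in 4 (Pou5f1, Nanog, Esrrb and Utf1) and above them in 1, Tdgf1, and its mean ran from 43.7% of wild type for Pou5f1 to 139% for Tdgf1. Of 3 neural markers it lay above the others for Sox1 and below for Tubb3. Fewer cells of a kind and less RNA per cell cannot be told apart in these bulk samples, and the part of RNA quality or of other cells in the lower initiation factor signals was not tested.

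**Figure D4:**
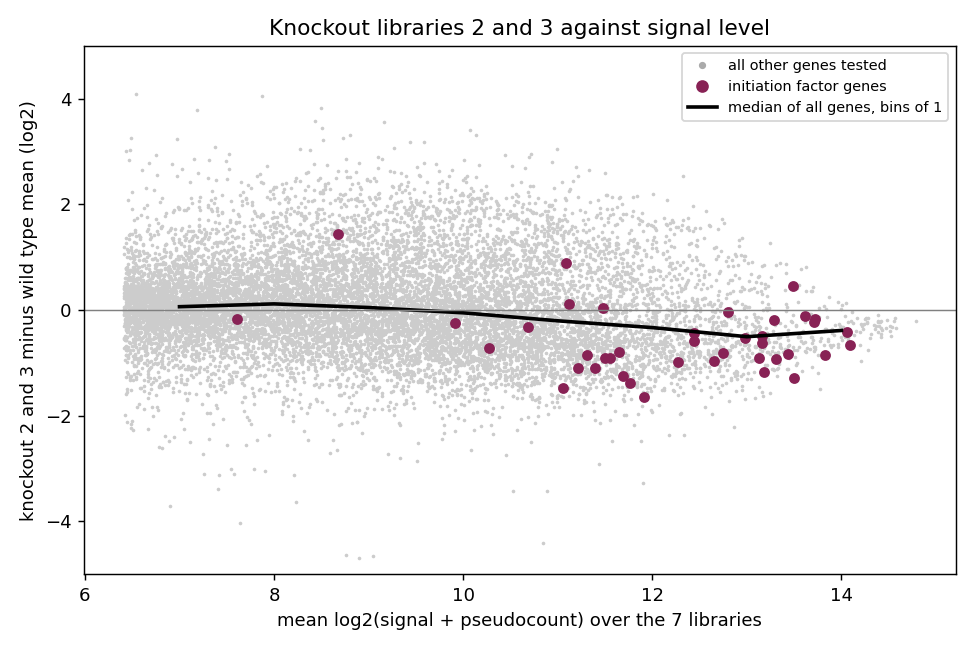
Each point is a gene tested, with its mean log2(signal + 20.2) over 7 libraries on the horizontal axis and the mean of knockout 2 and 3 minus the wild type mean (log2) on the vertical axis; the line is the median of all genes in bins of 1. The line falls below 0 for bright genes, and most of the 40 initiation factor genes (filled circles) lie at or under it.

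Probe sets of the same gene did not always agree. Of the 28 genes with more than 1 tested probe set, 13 had the same sign throughout, among them Eif2b2, Eif2s2, Eif3i, Eif4a1, Eif4b, Eif4h, Eif5a and Eif6, and 15 had mixed signs. Dim probe sets tended upward: of the 24 with a mean signal under 500, 15 were positive (62.5%, against 61.0% of all probe sets under that level), while of the 79 others 26 were (32.9%, against 48.6%). The largest positive values belonged to a weaker probe set of a gene whose brightest one stood near 0 or below. Such a probe set of Eif5 had 194 and 312 in wild type and 544, 1202, 1220.3, 289 and 422 in knockout libraries (1.29, limma adjusted p = 0.575), and knockout 2 and 3 were far above the rest. Such a probe set of Eif1ax had 63.6 and 131 against 156, 254, 298, 217 and 186, all higher (1.07, limma adjusted p = 0.575; 7.8% of all probe sets were separate and higher). Taking the mean of a gene's tested probe sets instead of the brightest gave a median of -0.22 over the 40 genes, with 8 lower in all knockout libraries and 0 higher (6.33% and 7.77% of all genes under that rule).

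**Figure D5:**
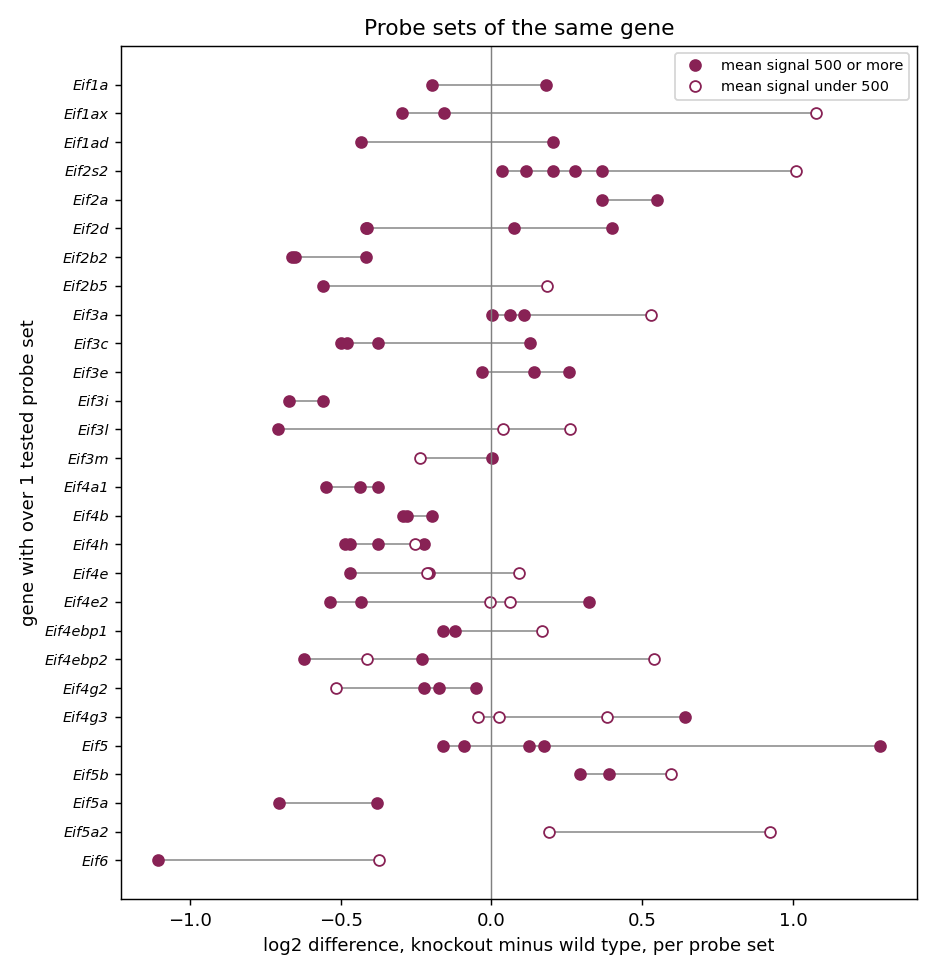
Circles are the log2 differences of every tested probe set of the 28 genes with more than 1, filled where the mean signal was 500 or more. Eif2b2, Eif4b and Eif5a keep to 1 side of 0, while Eif5, Eif1ax and Eif4ebp2 span it.

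Other genes of the pathway, from a list of 44 regulators and partners of which 41 were tested, lay on both sides of 0. No probe set of theirs passed (0 of 86 by limma). At an unadjusted limma p under 0.05 there were 8 (9.30%, against 8.42% of all probe sets). Of the genes 24 were negative and 17 positive, and the median was -0.19. Without knockout 2 and 3 the balance turned, with 19 negative, 22 positive and a median of 0.011. The groups did not overlap in 6, 4 lower (9.76%) and 2 higher (4.88%), against 7.44% and 6.41% of all genes. Without wild type 1 the counts were 9 and 7 (15.2% lower and 18.1% higher over all genes), and without wild type 2 they were 10 and 5 (28.1% and 23.6%). Without knockout 1 they were 8 and 2 (10.9% and 10.1%), and without knockout 4 they were 7 and 4 (12.3% and 9.17%).

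Of the 7 genes that act on eIF2, 4 were positive and 3 negative, with a median of 0.41, and of 0.20 without knockout 2 and 3. Ppp1r15b, which targets a phosphatase to phosphorylated eIF2, had 1837 and 1899 in wild type and 2209, 6920.2, 7189, 2523 and 2377 in knockout libraries. All 5 were higher, knockout 2 and 3 by far (0.97, SE 0.52, limma adjusted p = 0.575; 0.34 without them). A second, dim probe set of Ppp1r15b overlapped between the groups, at 0.31, and at -0.64 without the pair. The other 6 genes overlapped between the groups by their brightest probe sets. A dimmer probe set of Eif2ak2 was higher in all knockout libraries (0.46, with or without the pair), where 7.8% of all probe sets were separate and higher. Eif2ak3, encoding PERK, stood at 0.51 (0.20 without the pair), Eif2ak2, the kinase that senses double-stranded RNA, at 0.44 (0.26), and Eif2ak4, the amino acid sensor, at 0.41 (0.48). Eif2ak1, the haem-regulated kinase, stood at -0.66 (-0.45), Impact, an inhibitor of Eif2ak4 activation, at -0.53 (-0.046), and Ppp1r15a, the inducible phosphatase subunit, at -0.21 (-0.19). Atf4, whose messenger RNA is translated when eIF2B is inhibited, had 3302 and 2096 against 1778, 5916, 5284, 5014 and 2095 (0.44, SE 0.51, limma adjusted p = 0.748; 0.013 without knockout 2 and 3), with knockout 2, 3 and 4 above and knockout 1 and 5 below the wild type values.

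Dhps encodes the enzyme that starts hypusine formation on eIF5A. Its signals were 3956 and 3359.7 in wild type and 1883, 2456, 2172, 2541 and 1945 in knockout libraries, all lower, with knockout 1 rather than 2 or 3 the lowest. The difference of -0.73 (SE 0.25, limma adjusted p = 0.575) was -0.79 without knockout 2 and 3. Paip1, a partner of the poly(A)-binding protein that stimulates initiation, had 653 and 949.9 against 1267, 1443, 1313, 1444 and 1426, a difference of 0.79 (SE 0.26, limma adjusted p = 0.575) with or without the pair.

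Mknk2, a kinase of eIF4E, had 4052 and 3153 against 2771, 1336, 1234, 3011 and 2562 (-0.80, SE 0.41, limma adjusted p = 0.575), and Eef1d, an exchange factor of elongation, 12268 and 9094 against 8366, 4282, 4156, 8268 and 7973 (-0.75, SE 0.35, limma adjusted p = 0.575). Both were lower in all knockout libraries, most in knockout 2 and 3, and stood at -0.36 without the pair. Gspt1, a termination factor, was the remaining gene with lower groups by its brightest probe set (-0.61; -0.22 without the pair). Its 6 tested probe sets disagreed: a second one was also lower in all knockout libraries (-0.56), a dimmer one was higher in all of them (0.99), and the other 3 overlapped. Of the 8 elongation and termination genes tested 7 were negative, with a median of -0.21. Without knockout 2 and 3, 6 were negative, with a median of -0.09.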

How the data were processed

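Signals were measured on Affymetrix Mouse 430 2.0 arrays, 1 per sample, and the deposited values are linear intensities. The submitters' processing notes name MAS5, with no version given in the sources used here. With 2% of probe sets trimmed at either end, the authors' intensities averaged 500 on each array, a common scale; array medians ran from 92.6 to 124.9 and no further normalization was applied. No detection calls were used, and precision is limited by the number of arrays. Groups were taken from the titles.

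Of 45101 probe sets, 64 controls were left out. The platform annotation gave 34958 a single symbol, of which 34754 matched a RefSeq gene. Log2 values of the deposited signals were fitted with limma 3.58.1 (R 4.3.3), using lmFit and eBayes with a trend, two-sided and without covariates, and the fit was tested on simulated data. Full values are given for the gene with the highest signal in each factor group and for the 6 largest differences per direction among members whose groups do not overlap; the partner list was named by a like rule (up to 3 per direction); other members may be given as levels. Eif2b5, Eif2b3, Eif3b, Eif4a2, Eif4e2, Eif4ebp2, Eif4enif1, Eif5a2, Eif2ak1 to Eif2ak4, Impact, Ppp1r15a, Atf4 and Gspt1 and single dim probe sets were singled out after their values were seen. The members, lists, motifs and alternatives were chosen with earlier results of these data known. Alternatives were other scalings, pseudocounts, filters, variance models, array weights, probe set rules, the replicate number as a block, and libraries left out. Figures used matplotlib 3.10.9.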

Additional observations from a re-analysis of the deposited data

Results flagged for a closer look

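In the 5 knockout libraries, 2 of 40 initiation factor genes had a library whose log2 signal stood apart from the other 4 by more than 0.71 of the group's range. Chance alone gives about 1 in 20 groups, or 2 here. Eif4a2 had 15822 in knockout library 1 and 11503 to 12599.7 in the others (gap of 0.714 of the range). Eif4ebp1 had 10200.2 in knockout library 5 and 12339 to 13058 in the others (0.771).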

How the results depend on the processing

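Over 20 alternatives no initiation factor probe set or gene passed the test in any, and the median difference of the members stayed negative, from -0.50 to -0.15, where it was recomputed; in the fits that leave out 1 library it ran from -0.49 to -0.28. Centring on array medians moved the median of all genes to -0.12 and that of the members to -0.50, so that it stayed at -0.37 relative to all genes; quantile normalization brought this to -0.17. Of 396 values of the 20 named genes under alternatives, 379 kept their sign and stayed uncalled, and 17 in 8 genes changed sign. Eif3e turned positive under quantile normalization (0.19), array weights (0.0030), the replicate block (0.046), without knockout libraries 2 and 3 or with them as a batch term (0.094 each), as the mean of its probe sets (0.12), and in 3 leave-one-out fits (-0.33 to 0.27 over all 7). Quantile normalization also turned Eif4ebp1 (0.040) and Eif4g2 (0.026), median centring Eif2s2 (-0.0042), the mean over probe sets Eif1ax (0.21), and plain _at probe sets Eif2d (0.40). Without wild type library 1, Eif1b (0.20), Eif2s2 (-0.26) and Eif5 (-0.25) turned; with 1 library left out Eif1b ran from -0.82 to 0.20, Eif2s2 from -0.26 to 0.48 and Eif5 from -0.25 to 0.51. The cause of these changes was not tested.

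Of all probe sets, 5 passed with no filter, 4 with the filter at the 60th percentile, 15 with the replicate block, 5 without knockout libraries 2 and 3, and 0 to 7 with 1 library left out. Calr stood at -3.78 to -3.52 with 1 library left out, and missed the threshold when wild type library 1 (-3.58) or 2 (-3.78) was dropped. Lower members with separate groups numbered 12 after median centring, 4 of 31 genes with plain _at probe sets only (6.64% of all genes lower), and 7 to 22 with 1 library left out; higher members numbered 0 as the mean over probe sets and 1 to 9 with 1 library left out. Lower partner genes numbered 1 as the mean over probe sets (6.33% of all genes), 2 with plain _at probe sets (6.64%) and 4 to 10 with 1 library left out, and higher ones 2 to 7. The groups share replicate numbers 1 and 2 only. Same-numbered libraries deviated together at r = 0.11 and -0.0098. The deviations of the 2 wild type libraries mirror each other, so these values cannot decide whether the libraries were paired. The block changed no call of a member. With a lone wild type library the spread is taken from the knockout libraries. The number of arrays limits every value.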
